A study of Mus musculus with 12 samples.

Results

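Mouse embryonic fibroblasts (MEFs) knocked out for type 2 transglutaminase (TG2 KO) were set against wild-type (WT) MEFs, both grown at 37 °C, to show how the transcriptomes of these cells differ without any stress. The comparison holds the 3 KO control and the 3 WT control libraries, 6 of the 12 libraries of the series, and the genes with a normalized count that reached 10 in 3 or more of the 6. These numbered 13633 of the 45808 genes in the table, and 22479 genes had no read in the 6 libraries. Both lines came from C57BL/6 embryos and had become immortal by passage without an added oncogene, so each genotype is also a line with its own history, and genotype and line cannot be told apart. The exons removed from the knockout allele, and whether the 3 libraries of a genotype came from separate cultures, are not given in the sources used here, so p-values cover the spread among these 6 libraries alone, which may be technical. The other 6 libraries, 3 KO and 3 WT, came from MEFs of these genotypes held at 42 °C for 20 min.

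TG2 joins proteins through their glutamine and lysine side chains when calcium is high, and binds GTP and acts as a G protein when calcium is low. It is found in the cytosol, in the nucleus and in the extracellular matrix, where fibroblasts use it together with fibronectin and integrins. Heat shock factor 1 (HSF1), the transcription factor that switches on chaperone genes during heat stress, is among the proteins that the study linked to TG2.

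The authors counted reads per gene and scaled each library by its size factor, and the scaled count is called signal here. The KO control libraries held 16819011 to 22919496 reads in genes and the WT control libraries 18917305 to 27668395, so that 1 read stood for 0.699 to 1.13 signal. The median coefficient of variation over genes was 6.73% among KO libraries and 7.11% among WT libraries, and the first principal component, with 96.8% of the variance, parted the genotypes. Both lines carried fibroblast RNA. The summed signal of 16 fibroblast markers was 147017 to 160985 in KO MEFs and 186558 to 207997 in WT MEFs, with 6 of 14 tested members higher in KO MEFs (Thy1, S100a4, Vim, Pdpn, Dcn and Twist1) and 5 lower (Col1a1, Pdgfra, Col3a1, Pdgfrb and Postn). Thy1, a surface marker of fibroblasts, had 8748, 7857 and 8142 in KO MEFs, against 565.1, 526.3 and 458.3 in WT MEFs. Of 20 myeloid markers 16 had a read, and their sum was 1599 to 1888 in KO MEFs and 4345 to 5014 in WT MEFs, nearly all of it from Csf1r in WT MEFs and from Cd14 in KO MEFs. Adgre1, Cd33, C1qa and C1qb had no read in either genotype, while Cd68 had 74.9 to 93.3 in KO MEFs and 105.4 to 152.4 in WT MEFs, and Fcgr3 had 38.3 to 48.8 in KO MEFs and 1.04 to 5.05 in WT MEFs. Lymphoid markers summed to 163 to 176 in KO MEFs and 88.1 to 108 in WT MEFs, nearly all of it from Lck, and Cd3d, Cd3e, Cd3g and Cd8a had no read. Of 8 T cell receptor constant genes, Trdc and Trac were read, with a summed signal of at most 2.26 in KO MEFs and of 2027 to 2603 in WT MEFs. The 6 genes of the Y chromosome that were looked up (Ddx3y, Eif2s3y, Kdm5d, Uty, Zfy1 and Sry) had no read in either genotype, and Xist, the RNA that coats the inactive X chromosome, was read in all 6 libraries and was higher in KO MEFs (2.01 on the log2 scale).

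Tgm2, the gene of TG2, was still read in the KO libraries. Its signal was 1189, 1032 and 1065 in KO MEFs, against 1750, 1635 and 1605 in WT MEFs. The groups did not overlap, and the log2 fold change of KO over WT was -0.60 (SE 0.07, adjusted p = 6.14e-05, limma). At 1.52-fold Tgm2 stood just past the 1.5-fold threshold used for every call, and it fell short of it with quantile normalization (-0.56), TMM (-0.58), edgeR (-0.58), without KO control replicate 2 (-0.56) and without WT control replicate 1 (-0.57). Reads over the whole gene are summed, so the count cannot show the loss of some exons and does not check the genotype label. Tgm2 lies on the minus strand of chr2:158116402-158146436 (GRCm38). Rprd1b on the plus strand overlaps it, and whether counting used strand is not given in the sources used here. Rprd1b itself had 1658 ± 23.7 in KO MEFs and 1332 ± 31.0 in WT MEFs (SD, n = 3 each), a log2 fold change of 0.32 that was not called.

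The neighbours of Tgm2, which were chosen after their values were seen, included 2 of the steepest changes on that stretch. Distances given here run between the lower coordinates of 2 genes, which for Tgm2 is its 3' end. Lbp, which encodes the protein that hands bacterial lipopolysaccharide to CD14, lay 190 kb from Tgm2 in this sense. It had 971.4, 878.0 and 927.1 in KO MEFs, against 24.89, 33.21 and 19.56 in WT MEFs. D630003M21Rik, whose lower coordinate was 66 kb from that of Tgm2, had 29.6 ± 5.46 in KO MEFs and 246.6 ± 16.4 in WT MEFs (SD, n = 3 each), a log2 fold change of -3.03. Ralgapb and Ctnnbl1 were each higher by 0.68, while Samhd1 (-0.01) and Src (0.08) were not called. Hsf1 itself had 2353, 2206 and 1969 in KO MEFs, against 3394, 3035 and 2871 in WT MEFs, a log2 fold change of -0.51 (SE 0.08, adjusted p = 5.73e-04, limma) that passed the test and not the fold threshold.

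Of the 13633 genes tested, 6613 (48.5%) were called, 3079 (22.6%) higher in KO MEFs and 3534 (25.9%) lower. With quantile normalization, which moved the median log2 fold change of all genes by 0.12, the split turned to 3811 higher and 3042 lower. Calls needed an adjusted p no higher than 0.05 together with a fold no smaller than 1.5, and 10246 genes (75.2%) passed the p alone. The libraries of the genotypes did not overlap in 10509 genes (77.1%). Genes that met the filter within each genotype numbered 11478, and of these 4676 (40.7%) were called, 2280 (19.9%) higher and 2396 (20.9%) lower. A further 859 genes met it only in KO MEFs and 1207 only in WT MEFs, and such genes had to differ, so lists of genes are described below by their members that met it in both. Counts of a list are to be read beside 19.9% higher and 20.9% lower, and counts near these shares are no trait of the list. Genes just inside the filter were Plvap, Fam49a and Cilp, whose 3 highest libraries reached down to 10.1, and genes just outside were Wdr38, Lst1 and Hist1h2be, at 9.99.

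The steepest changes were mostly losses in KO MEFs. Among called genes 1899 were at least 2-fold higher and 2275 at least 2-fold lower, and 255 were at least 16-fold higher against 802 at least 16-fold lower. Among genes that met the filter in both genotypes, 36 were at least 16-fold higher and 66 at least 16-fold lower. No read in KO MEFs was found for 401 tested genes, and no read in WT MEFs for 72. Long noncoding RNAs went the other way, with 292 of 562 higher and 102 lower. So did pseudogenes, with 260 of 604 higher and 62 lower. Over all genes tested 22.6% were higher and 25.9% lower. The counts of these classes include genes that met the filter only in KO MEFs or only in WT MEFs, and such genes had to differ. Whether the contrast holds among members that met it in both genotypes was not tested. Genes called higher took 24% to 24.6% of all signal in KO libraries and 10.5% to 10.9% in WT libraries, while genes called lower took 11.2% to 11.5% in KO libraries and 25.3% to 25.4% in WT libraries. In bulk RNA, fewer cells that express a gene and less of its RNA per cell cannot be told apart.

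**Figure D1:**
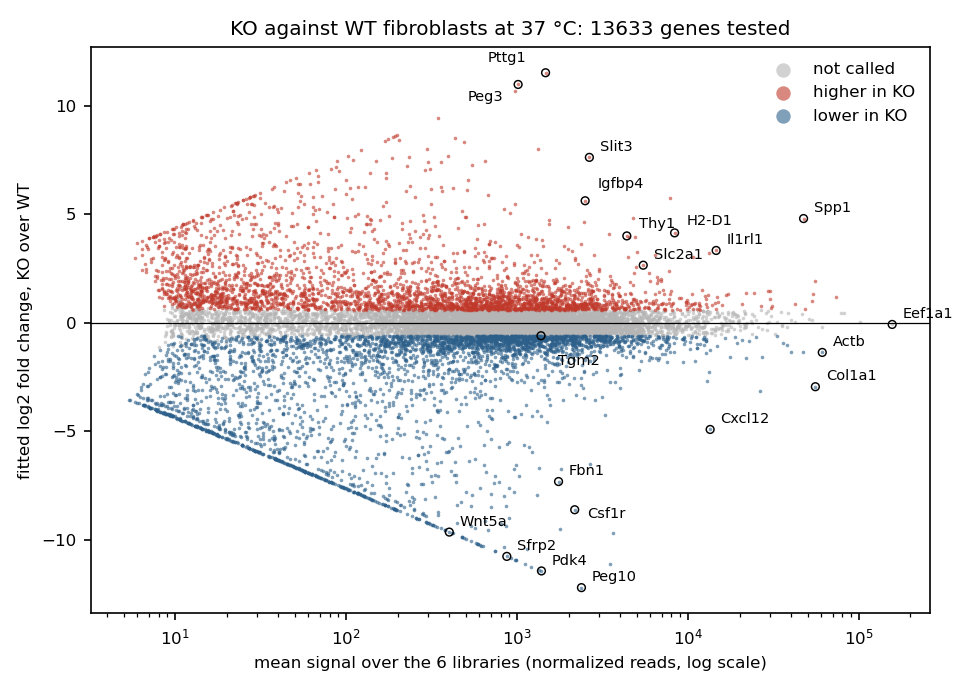
Log2 fold change of KO over WT control (vertical axis) against mean signal of the 6 control libraries (horizontal log axis) for the 13633 genes tested, with called genes in colour and selected genes named. Called genes span all levels, with Slit3 at 7.62 and Csf1r at -8.62 among the steep changes of genes read in both genotypes.

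Genes read in only 1 line included developmental, imprinted and metabolic genes. Where a genotype had no read, the fold is a lower bound against a floor of 3 reads over its 3 libraries, and bounds and intervals cover counting error only. Of the genes without a read in KO MEFs, Peg10, an imprinted gene that descends from a retrotransposon, had 4345, 4928 and 4997 in WT MEFs, so its decrease in KO MEFs was at least 4803-fold. The gene of Pdk4, a kinase that keeps pyruvate out of the citric acid cycle, had 2607, 2791 and 2931 in WT MEFs. Uchl1, a deubiquitinase best known from neurons, had 2663, 2403 and 2216 in WT MEFs, and Sfrp2, a secreted antagonist of Wnt, had 1712, 1776 and 1734. The other 6 of the 10 genes of highest level in WT MEFs were Klhl22, Trdc, B3glct, Asb4, Smoc2 and Sprr1a, with bounds of 1872-fold to 2729-fold.

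Of the genes without a read in WT MEFs, Pttg1 had 3000, 2849 and 2952 in KO MEFs. It encodes securin, an inhibitor that keeps sister chromatids from being parted before anaphase, and its increase was at least 3697-fold. Peg3, an imprinted zinc finger gene expressed from the paternal allele, had 1913, 1940 and 2228 in KO MEFs (at least 2555-fold higher). Hhip, which binds hedgehog proteins at the cell surface, had 346.8, 341.2 and 368.6, and Dio2, which turns thyroxine into the active thyroid hormone, had 206.8, 180.6 and 227.2. Ifi202b, Glt1d1, Pid1, Tmem47, Eml2 and Isoc2b completed the 10 genes of highest level, with bounds of 168-fold to 873-fold. Ifi202b belongs to a cluster of near-identical genes, so its reads may have been split among copies.

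Among genes with a mean signal of at least 10 in each genotype and at least 500 in the higher one, the 10 steepest decreases included receptors, matrix proteins and enzymes. Csf1r, the receptor of macrophage colony stimulating factor, had 20.2, 13.3 and 3.39 in KO MEFs, against 4626, 4331 and 4039 in WT MEFs, a log2 fold change of -8.62 (SE 0.48, adjusted p = 5.94e-07, limma), or -7.96 without KO control replicate 3. Fbn1, the fibrillin of elastic microfibrils, had 23.3, 24.1 and 15.8 in KO MEFs, against 3650, 3485 and 3288 in WT MEFs (-7.32). Creb3l1, a transcription factor cut loose from the endoplasmic reticulum membrane that drives collagen secretion, had 30.75, 34.95 and 31.66 in KO MEFs, against 3855, 3467 and 3380 in WT MEFs (-6.74). The other 7 were Enpp3, Col4a5, Nrep, Arnt2, Arl6ip1, Ptgis and Hspa12a, at -6.54 to -7.08.

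Under the same limits on level, the 10 steepest increases included guidance, adhesion and transport genes. Slit3, a secreted ligand of Robo receptors, had 5317, 5290 and 5190 in KO MEFs, against 31.1, 26.0 and 21.0 in WT MEFs, a log2 fold change of 7.62 (SE 0.13, adjusted p = 1.01e-09, limma). Igfbp4, which binds insulin-like growth factors and dampens Wnt signalling, had 5099, 4691 and 4911 in KO MEFs, against 117.2, 83.75 and 98.51 in WT MEFs, 49.1-fold higher. The other 8 were Cdh13, Col5a3, Spn, Hid1, Usp17la, Slco2a1, H2-Q4 and Lbp, at 5.14 to 6.56. Usp17la and H2-Q4 have near-identical relatives, so their counts are less certain.

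The largest shifts in signal itself fell on abundant genes. Spp1, which encodes the matrix phosphoprotein osteopontin, had 90913, 93316 and 90189 in KO MEFs, against 3034, 3428 and 3420 in WT MEFs, 27.8-fold higher. Fth1, the ferritin heavy chain that stores iron, had 91178, 83867 and 85767 in KO MEFs, against 22546, 24010 and 23310 in WT MEFs. Gapdh, Fn1, Vim, Tpi1, Ldha and Rps2 followed among the higher genes, at 0.88 to 1.45 on the log2 scale. In the other direction Cxcl12, a chemokine of stromal cells, had 884.5, 867.2 and 833.2 in KO MEFs, against 26312, 26002 and 25879 in WT MEFs, 30.3-fold lower in KO MEFs. Actb, the cytoskeletal actin often used as a loading control, had 37088, 34456 and 30599 in KO MEFs, against 94565, 85763 and 83313 in WT MEFs. Both Gapdh (1.20) and Actb (-1.37) were therefore called, in opposite directions. Col1a1, Fbln2, Rplp0, Hspa8, Thbs1 and mt-Cytb made up the 8 largest decreases, at -1.04 to -3.14. The libraries of mt-Cytb spread widely, at 18587, 24384 and 31077 in KO MEFs and 37451, 49954 and 65628 in WT MEFs.

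Against this background some abundant genes stayed level. Eef1a1, the elongation factor that brings aminoacyl-tRNA to the ribosome, had 151878 ± 2267 in KO MEFs and 160659 ± 3864 in WT MEFs (SD, n = 3 each). Hsp90ab1, the constitutive cytosolic HSP90, had 103194 ± 2383 in KO MEFs and 100369 ± 4120 in WT MEFs (SD, n = 3 each). The tubulin gene Tubb5 (0.01), the nucleolar chaperone gene Npm1 (0.03) and the translation factor gene Eif5a (0.02) were also within 0.1 on the log2 scale.

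**Figure D2:**
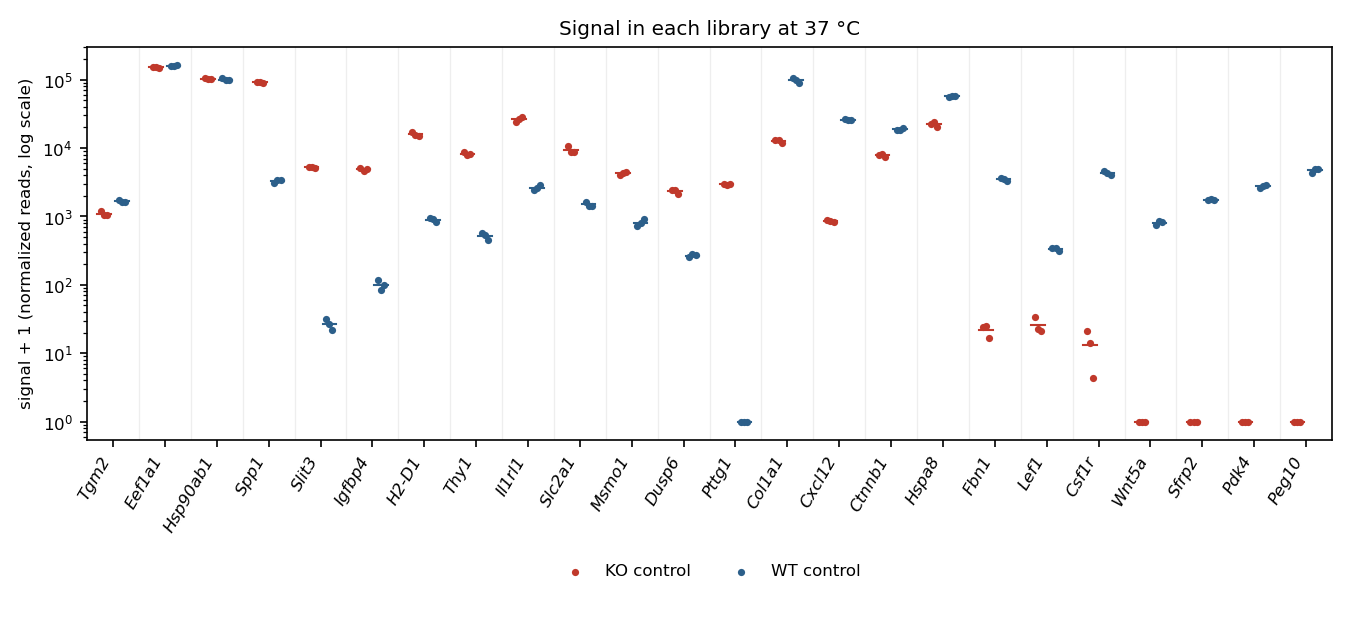
Signal + 1 (log axis) of each control library for 24 genes named in the text, KO control left of WT control in each pair, with points for libraries and bars for means of 3. Library points of a genotype lie close together beside the distance between genotypes for called genes such as Spp1, Slit3, Cxcl12 and Csf1r, while those of Eef1a1 and Hsp90ab1 lie side by side.

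Genes of cholesterol synthesis were higher in KO MEFs nearly throughout. This pathway builds sterols from acetyl-CoA and is switched on by SREBP2 when cell sterol is low. All 24 tested members met the filter in both genotypes, 20 were higher and none lower, and their median log2 fold change was 0.96, beside 19.9% of genes higher and a median of -0.03 over all genes that met it in both. Msmo1, which removes methyl groups from the sterol ring, had 4080, 4362 and 4522 in KO MEFs, against 719.6, 805.0 and 920.1 in WT MEFs, a log2 fold change of 2.41 (SE 0.09, adjusted p = 4.99e-08, limma). Mvd, the mevalonate decarboxylase, had 2136, 2144 and 1821 in KO MEFs, against 614.9, 498.2 and 518.4 in WT MEFs, 3.74-fold higher. Fdps, which makes farnesyl diphosphate, rose by 1.82 and Lss, which closes the sterol rings, by 1.70. Mvk (0.53) and Stard4 (0.34) were not called (Mvk was at 0.59 to 1.01 in 4 alternatives), nor was Ebp (-0.56), the one member below 0, which is named because of that value. Without KO control replicate 1 or WT control replicate 3, 1 member was called lower and 19 higher. The summed signal of the list was 55447 to 59459 in KO MEFs and 28746 to 29652 in WT MEFs.

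Glucose uptake and glycolysis genes were more often higher than lower in KO MEFs, while kinases that gate pyruvate dehydrogenase went both ways. Of 31 members that met the filter in both genotypes, 15 were higher and 5 lower, with a median of 0.47 (0.60 over the 34 tested). Slc2a1, the basal glucose transporter, had 10595, 8848 and 8861 in KO MEFs, against 1641, 1432 and 1426 in WT MEFs, 6.29-fold higher. Pdk1, a kinase that shuts pyruvate dehydrogenase, had 2790, 2397 and 3010 in KO MEFs, against 635.6, 675.8 and 680.5 in WT MEFs. The lactate exporter gene Slc16a3 (2.29) and the glucose transporter gene Slc2a3 (3.16) were higher from low signal. Pdk4 had no read in KO MEFs, and Pdk2 (-1.92), Pfkfb3 (-1.55) and Ldhb (-1.09) were lower. Pkm (0.14), Gpi1 (0.31) and Pdha1 (0.47) were not called. Summed signal was 378899 to 421407 in KO MEFs and 203661 to 232752 in WT MEFs.

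Genes of fat storage under PPARγ, the transcription factor that drives adipocyte formation, had 5 higher and 2 lower of 16 members that met the filter in both genotypes. Cebpd, an early factor of that programme, had 1509, 1127 and 1231 in KO MEFs, against 92.28, 105.4 and 83.14 in WT MEFs. Pparg itself stayed low, with 98 reads in KO MEFs and 3 in WT MEFs, a ratio of 40.8 with a 95% Clopper-Pearson interval of 13.6 to 201. Retn (4.19) and Plin4 (3.28) were higher. Lpl, which frees fatty acids from lipoproteins, had no read in KO MEFs, at least 493-fold lower there. Angptl4, an inhibitor of Lpl, was lower (-2.24), and Fasn (-0.30) and Srebf1 (0.40) were not called.

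Genes against oxidants and of metal and glutathione handling were split, with 12 higher and 11 lower of 38 that met the filter in both genotypes. Mt1, a metallothionein that binds zinc and copper, had 9132, 7467 and 7330 in KO MEFs, against 1852, 1575 and 1466 in WT MEFs. Gsto2 (3.49), Sod3 (2.76) and Gsto1 (1.91) were higher. The glutathione transferase genes Gstt1 (-4.07) and Gsta2 (-3.12) were lower, and Gpx7 and Gstm4 had no read in KO MEFs, with bounds of 516-fold and 70.9-fold lower. The abundant Prdx1, Prdx6 and Txn1 were not called, but Txn1 was called lower (-0.60 or -0.61) without KO control replicate 1 or 2 or WT control replicate 2.

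The chaperone genes that HSF1 activates were more often lower than higher in unstressed KO MEFs. Of 32 members that met the filter in both genotypes, 2 were higher and 12 lower, beside 20.9% of all such genes lower, and the median over the 34 tested was -0.30. Hspa8, the constitutive HSP70, had 22725, 24401 and 20658 in KO MEFs, against 56362, 56884 and 58351 in WT MEFs, 2.53-fold lower in KO MEFs. The small heat shock protein gene Hspb8 had 900.4, 918.7 and 788.0 in KO MEFs, against 4029, 4032 and 4026 in WT MEFs. Hspb1, which caps unfolding proteins and actin filaments, had 528.1, 532.6 and 503.1 in KO MEFs, against 1900, 1671 and 1533 in WT MEFs. All of these groups lay apart.

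The inducible HSP70 gene Hspa1b was low in both lines before heat shock, at 2.12, 9.99 and 4.52 in KO MEFs, against 48.7, 62.8 and 36.3 in WT MEFs. Its log2 fold change was -3.10 (SE 0.43, adjusted p = 1.96e-04, limma), and its near-identical neighbour Hspa1a may share its reads. In the other direction, Fkbp4, an HSP90 partner of steroid receptors, had 26599, 24432 and 23050 in KO MEFs, against 10444, 9491 and 9230 in WT MEFs. The HSP40 gene Dnajb1 was higher by 0.69, but by 0.16 and not called when each chromosome was centred on its own median. Cryab (-2.31) and Hspb2 (1.42) went opposite ways, but they overlap on opposite strands, at chr9:50751325-50756636 and chr9:50751078-50752354. Hspa9 (0.47) and Hspd1 (0.01) were not called. Summed signal was 285182 to 296734 in KO MEFs and 353692 to 357557 in WT MEFs.

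HSF1 binds as a trimer to inverted repeats of GAA, and the search took GAANNTTCNNGAA on both strands of the 300 bases around annotated starts (250 before and 50 after, RefSeq, GRCm38.p6). A gene counted if the window of any of its starts held a match, so genes with more starts had more chances. Of 27 chaperone genes with a start listed by RefSeq, 5 held it (18.5%), beside 0.662% of 27025 genes. The 5 were Hsph1, Hspd1, Hspe1, Dnajb6 and Chordc1. The sterol element TCACNCCAC, which SREBP2 binds, was found for 1 of 17 cholesterol synthesis genes (5.88%), Hmgcs1, beside 1.44% of all genes. A match is a description of letters and not of binding. The 4 windows printed were chosen after the values were seen, with the matches in capitals. They stand for Hmgcs1 at chr13:119690101-119690400 (plus strand), 1 of the starts of Hsph1 at chr5:149636287-149636586 (minus strand), Hspe1 at chr1:55087898-55088197 (plus strand) and Chordc1 at chr9:18292017-18292316 (plus strand).
Hmgcs1: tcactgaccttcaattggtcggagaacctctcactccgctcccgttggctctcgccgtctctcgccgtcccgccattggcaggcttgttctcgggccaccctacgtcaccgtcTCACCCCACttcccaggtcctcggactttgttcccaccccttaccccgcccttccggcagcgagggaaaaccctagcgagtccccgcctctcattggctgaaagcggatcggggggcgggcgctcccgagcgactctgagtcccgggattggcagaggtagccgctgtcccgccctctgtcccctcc
Hsph1: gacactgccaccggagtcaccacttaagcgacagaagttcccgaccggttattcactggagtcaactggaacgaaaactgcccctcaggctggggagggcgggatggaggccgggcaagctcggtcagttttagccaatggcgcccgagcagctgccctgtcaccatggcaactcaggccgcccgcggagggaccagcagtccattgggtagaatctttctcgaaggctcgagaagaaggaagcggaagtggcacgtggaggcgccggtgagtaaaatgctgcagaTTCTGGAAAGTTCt
Hspe1: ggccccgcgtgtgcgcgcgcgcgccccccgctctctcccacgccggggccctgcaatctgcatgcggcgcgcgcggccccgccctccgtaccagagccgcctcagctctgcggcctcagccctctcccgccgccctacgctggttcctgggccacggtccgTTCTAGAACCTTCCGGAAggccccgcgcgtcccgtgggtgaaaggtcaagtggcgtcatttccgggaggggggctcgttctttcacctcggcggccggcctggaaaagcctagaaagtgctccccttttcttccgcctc
Chordc1: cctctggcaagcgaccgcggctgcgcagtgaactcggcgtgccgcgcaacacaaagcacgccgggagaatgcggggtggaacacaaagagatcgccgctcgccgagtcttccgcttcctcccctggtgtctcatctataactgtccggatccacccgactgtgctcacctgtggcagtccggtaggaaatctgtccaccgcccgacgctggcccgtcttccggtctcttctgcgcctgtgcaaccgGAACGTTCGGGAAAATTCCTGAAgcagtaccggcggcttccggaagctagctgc

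Hmgcs1, which makes the HMG-CoA used for sterols, had 2740, 2846 and 2795 in KO MEFs, against 1284, 1429 and 1487 in WT MEFs, and was called higher (2.00-fold). Hsph1, the HSP110 that resets HSP70, had 3887, 4097 and 3721 in KO MEFs, against 10060, 10862 and 11312 in WT MEFs, and was called lower (-1.46, adjusted p = 1.03e-07 from limma). Hspe1, the lid of the mitochondrial chaperonin, had 3757, 3945 and 4083 in KO MEFs, against 3282, 3292 and 3453 in WT MEFs and was not called (0.23). Hspe1 shares its start region with Hspd1 on the opposite strand. Chordc1, an HSP90 partner, had 575.9, 650.8 and 716.8 in KO MEFs, against 829.5, 923.4 and 978.8 in WT MEFs and was not called (-0.49). The 3 genes printed with the HSF1 element thus spread over -1.46, -0.49 and 0.23. Hspd1, which also held it, was at 0.01, and the value of Dnajb6, which held it too, is not given here.

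**Figure D3:**
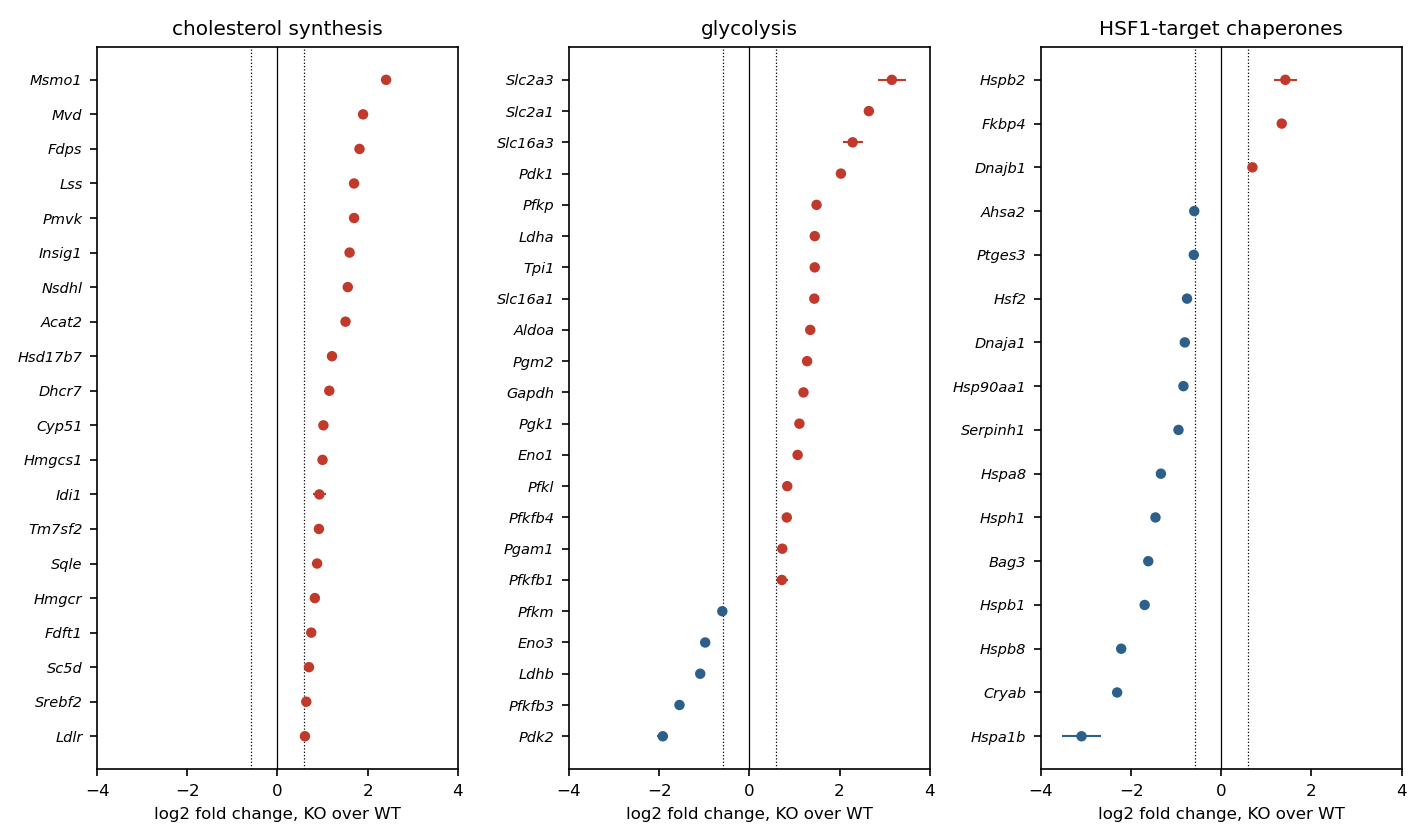
Log2 fold change of KO over WT control with its standard error for each called gene read in both genotypes of cholesterol synthesis, of glycolysis and of the HSF1 target chaperones, with dotted lines at the 1.5-fold threshold. The 20 called cholesterol genes were all higher, while 3 called chaperones were higher and 13 lower, and uncalled genes are not drawn.

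Immediate early genes, which growth factors and stress switch on within minutes, were more often higher in KO MEFs, with 15 higher and 7 lower of 31 that met the filter in both genotypes. The MAP kinase phosphatase genes Dusp4 and Dusp6, which damp ERK signalling and are themselves its targets, were among the steepest. Dusp4 had 2002, 1808 and 1744 in KO MEFs, against 168.0, 144.4 and 146.7 in WT MEFs, 12.1-fold higher. Dusp6 had 2458, 2423 and 2161 in KO MEFs, against 250.9, 281.6 and 269.7 in WT MEFs, 8.78-fold higher. The orphan receptor genes Nr4a1 (2.90) and Nr4a2 (2.92) were also higher. Klf10 (-1.99), Ctgf (-1.59), Klf6 (-1.59) and Atf3 (-1.24) were lower, and Myc (-0.28), Junb (-0.41) and Fosl2 (0.54) were not called.

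Among members that met the filter in both genotypes, genes of Wnt receptors and of the β-catenin machinery were more often lower than higher in KO MEFs. Wnt proteins bind Frizzled receptors, and in the canonical branch β-catenin then gathers in the nucleus and joins TCF and LEF factors. Of 10 tested genes of Wnt ligands and R-spondins, 8 were lower and 1 higher. But 9 met the filter only in WT MEFs, so they were selected for being high there, and their count is no result about the family. Only Rspo2 (1.92), which was higher, met the filter in both genotypes. Wnt5a, a ligand of the β-catenin-independent branch, had no read in KO MEFs and 746.6, 843.3 and 816.7 in WT MEFs, at least 810-fold lower in KO MEFs. Wnt10b, a canonical ligand, had 8.48, 15.8 and 5.65 in KO MEFs, against 608.6, 574.7 and 460.4 in WT MEFs. Wnt5b had 1 read in KO MEFs and 833 in WT MEFs, a WT to KO ratio of 667 with a 95% Clopper-Pearson interval of 120 to 26391. Wnt4 (-7.43) and Rspo1 (-6.79) were lower, and Wnt9a (-0.63) was not called. Wnt9a was called lower with the replicate number as a block (-0.63) and without KO control replicate 1 (-0.88) or WT control replicate 3 (-0.90).

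Of 12 receptor genes that met the filter in both genotypes, 3 were higher (Fzd5 by 1.34, Fzd1 by 0.74 and the pseudokinase gene Ptk7 by 0.70, or 0.44 and not called with each chromosome centred) and 6 lower, among them Fzd4 (-4.21). Fzd3 and Fzd6 had no read in KO MEFs, while Fzd7, Ryk and Fzd2 were not called. Antagonists went both ways. Of 8 that met the filter in both genotypes, 4 were higher (Igfbp4 by 5.62, Dact3 by 2.06, Apcdd1 by 1.68 and Dkk3 by 0.85) and 1, Dact1, was lower (-4.19). The secreted decoys Sfrp2 and Sfrp1 had no read in KO MEFs, at least 1758-fold and 628-fold lower.

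Of 20 genes of the β-catenin machinery that met the filter in both genotypes, 2 were higher and 7 lower. Ctnnb1, the gene of β-catenin, had 7960, 8101 and 7366 in KO MEFs, against 18619, 18627 and 19505 in WT MEFs, a log2 fold change of -1.28 (SE 0.05, adjusted p = 1.17e-07, limma). Its nuclear partner Lef1 had 32.9, 21.6 and 20.4 in KO MEFs, against 349.4, 341.5 and 309.5 in WT MEFs. Axin2, a feedback inhibitor that canonical Wnt signalling induces, went the other way, with 55.2, 56.6 and 47.5 in KO MEFs, against 21.8, 26.7 and 21.7 in WT MEFs. Pygo1 (-4.18), Apc2 (-3.52) and Tcf7l2 (-1.55) were lower, Dvl2 (0.83) was higher, and Csnk1a1, Axin1 and Dvl1 were not called.

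TGFβ and BMP genes were lower in 15 and higher in 4 of 31 members that met the filter in both genotypes. Tgfbr3, the coreceptor betaglycan, had 3050, 2993 and 3008 in KO MEFs, against 706.1, 761.7 and 692.3 in WT MEFs. The activin antagonist Fst was higher by 2.14 and the receptor gene Acvrl1 by 2.93, from low signal. The ligand gene Bmp7 and the receptor gene Bmpr1b were without a read in KO MEFs, at least 387-fold and 85.2-fold lower, while the shared mediator Smad4 and the receptor genes Bmpr1a and Bmpr2 were not called.

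Growth factor and receptor genes had 8 higher (23.5%) and 10 lower (29.4%) of 34 that met the filter in both genotypes. Of all such genes 19.9% were higher and 20.9% lower. Hgf, the ligand of the Met receptor, had 653.3, 690.7 and 811.8 in KO MEFs, against 3.11, 6.5 and 1.40 in WT MEFs. Fgf10 (5.79), Igf2 (5.71) and Fgf21 (4.50) were higher too. Tgfa, a ligand of the EGF receptor, had no read in KO MEFs and 582.7, 603.6 and 585.5 in WT MEFs. Kit and Igfbp3 also lacked reads in KO MEFs, and Pdgfra, a receptor of mesenchymal cells, was lower (-1.57).

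Among Notch and hedgehog genes, 4 were higher and 5 lower of 16 that met the filter in both genotypes. Jag1, a Notch ligand, had 6.36, 14.2 and 6.78 in KO MEFs, against 569.2, 597.1 and 614.1 in WT MEFs. The ligand gene Dll1 (-5.93, or -5.30 and -6.66 without KO control replicates 2 and 3) and the hedgehog coreceptor gene Boc (-4.04) were lower. Hhip was read in KO MEFs alone. Jag1, Dll1 and Boc met the filter only in WT MEFs and Hhip only in KO MEFs, so these genes had to differ. The receptor gene Notch1 was higher (1.69). Notch2, Smo and Maml1 were not called.

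In the prostanoid pathway the prostacyclin synthase and its receptor moved apart. Ptgis, which makes prostacyclin, had 24.39, 15.81 and 20.35 in KO MEFs, against 2068, 1933 and 1869 in WT MEFs. Ptgir, the prostacyclin receptor gene, had 888.7, 826.4 and 873.9 in KO MEFs, against 1.04, 2.89 and 0.699 in WT MEFs. The prostaglandin transporter gene Slco2a1 (5.45), the receptor gene Ptgfr (7.64) and Ptgds (2.84, or 2.23 without WT control replicate 3) were higher, and 6 of 14 members that met the filter in both genotypes were higher against 4 lower.

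Cytokine and chemokine genes were higher in 12 and lower in 8 of 31 members that met the filter in both genotypes. The alarmin Il33 and the gene of its receptor were both higher in KO MEFs. Il33 had 969.3, 1005 and 1261 in KO MEFs, against 5.18, 8.66 and 4.89 in WT MEFs. Il1rl1, whose product ST2 binds IL-33 as a membrane receptor or a soluble decoy, had 24385, 26336 and 28933 in KO MEFs, against 2412, 2636 and 2880 in WT MEFs. Ccr7 (4.69) and Il11 (4.56) were higher. Cxcl5, a neutrophil chemokine, was lower (-7.95, or -7.31 without KO control replicate 2). Tnfrsf11b, the decoy receptor osteoprotegerin, had no read in KO MEFs (at least 1185-fold lower), and Il6st (0.38), Tnfrsf1a and Csf1 (-0.19) were not called.

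Genes of antigen presentation by MHC class I changed in most members and in both directions, with the classical heavy chains higher. All 21 members met the filter in both genotypes, and 10 were higher and 7 lower, with a median of 0.58. The heavy chain gene H2-D1 had 17067, 15433 and 14861 in KO MEFs, against 936.3, 929.9 and 821.6 in WT MEFs, 17.6-fold higher. H2-K1 had 9778, 9135 and 8759 in KO MEFs, against 646.0, 593.5 and 568.0 in WT MEFs, 15.3-fold higher. Nlrc5, the transactivator of class I genes, was 12.2-fold higher. The peptide transporter genes Tap1 (2.64) and Tap2 (1.74) and the immunoproteasome gene Psmb9 (3.58), added after their values were seen, were higher. Other genes that cut or load peptides were lower, among them Psme1 (-0.94), Psmb8 (-0.80), Psme2 (-0.68) and Tapbp (-0.62, not called at -0.58 without KO control replicate 2 or at -0.57 without WT control replicate 1). Canx, Calr and Psmb10 were not called. H2 genes resemble each other closely, so reads may have been shared among them.

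Interferon genes were more often lower than higher, with 3 higher and 14 lower of 29 that met the filter in both genotypes. Ifih1, the sensor MDA5 of long double-stranded RNA, had 7.42, 7.49 and 9.05 in KO MEFs, against 355.6, 341.5 and 394.0 in WT MEFs. Tlr7, an endosomal sensor of single-stranded RNA, had 518.6, 618.3 and 635.4 in KO MEFs, against 0, 2.89 and 2.10 in WT MEFs, a log2 fold change of 8.01, or 7.41 without WT control replicate 1. Gbp3 was lower (-4.82) and Oasl1 higher (4.37). Mx1 was nearly absent from KO MEFs, at a WT to KO ratio of 116 with a 95% Clopper-Pearson interval of 20.5 to 4620.

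Genes of position and limb patterning were among those whose reads ended in 1 line. Hox genes, whose ordered expression marks position along the body, had 3 higher and 9 lower of 22 members that met the filter in both genotypes. With quantile normalization the number of higher members among all 29 tested went to 6, beside 3 here. Hoxc8 had 251.3, 247.2 and 205.8 in KO MEFs, against 46.66, 45.49 and 44.01 in WT MEFs. Hoxa9 had 1 read in KO MEFs and 791 in WT MEFs, a WT to KO ratio of 634 with a 95% Clopper-Pearson interval of 113 to 25062. Hoxa11, Hoxd9 and Hoxc13 had no read in KO MEFs, with bounds of 127-fold to 145-fold lower. Hoxa3 (0.79) and Hoxa5 (0.76), which overlap in the annotation, were higher.

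T-box and limb mesenchyme factors were higher in 7 (31.8%) and lower in 8 (36.4%) of 22 that met the filter in both genotypes. The shares of all such genes were 19.9% and 20.9%. Osr1, a factor of early mesenchyme, had 2735, 2528 and 2607 in KO MEFs, against 226.0, 233.2 and 218.7 in WT MEFs. Scx, the tendon factor, had a WT to KO ratio of 985 with a 95% Clopper-Pearson interval of 177 to 38954. Msx1, Tbx5, which marks the forelimb, and Lmx1b, which marks the dorsal limb, had no read in KO MEFs, while Tbx20 had none in WT MEFs. Prrx1 (-0.10), Snai1 and Snai2, general mesenchymal factors, were not called.

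Fox, Sox and Gata factors had 8 higher and 10 lower of 23 that met the filter in both genotypes. Gata4, known from heart and gut, had 2.12, 1.66 and 1.13 in KO MEFs, against 953.9, 924.9 and 792.2 in WT MEFs. Foxl1 (2.12), Foxc1 (1.78), Foxd2 (1.59) and Foxc2 (1.38) were higher, and Foxq1 and Sox11 had no read in KO MEFs, at least 330-fold and 265-fold lower. Imprinted genes, which are expressed from 1 parental allele, had 6 higher and 8 lower of 24 that met the filter in both genotypes. Usp29, a neighbour of Peg3, and H19 had no read in WT MEFs, at least 25.4-fold and 35.8-fold higher in KO MEFs. Plagl1 and Sgce had none in KO MEFs (at least 526-fold and 397-fold lower), and Gnas, Cd81 and Nap1l4 were not called.

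In the extracellular matrix, collagen genes were lower in 12 and higher in 1 of 20 members that met the filter in both genotypes. Col1a1, a chain of the main fibrillar collagen, had 13254, 13185 and 11774 in KO MEFs, against 106899, 98150 and 90024 in WT MEFs, 7.72-fold lower in KO MEFs. Elastic fibre and matricellular genes were higher in 3 and lower in 8 of 17, and proteoglycan genes higher in 5 and lower in 3 of 12. The heparan sulfate proteoglycan gene Sdc3 had 11.7, 7.49 and 5.65 in KO MEFs, against 7525, 7371 and 6902 in WT MEFs, and Gpc4, another such gene, was lower (-8.13). Integrin genes, which hold cells to the matrix, were higher in 4 and lower in 5 of 12 that met the filter in both genotypes, with Itgb4 at 6.15 and Itga11 at -7.34.

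Contractile genes did not move as a group, with 5 higher (17.9%) and 8 lower (28.6%) of 28 that met the filter in both genotypes. Among all such genes 19.9% were higher and 20.9% lower. Des (4.37), the muscle intermediate filament gene, and Tagln (2.07) were higher, while Acta2, the smooth muscle actin gene, was lower (-2.62). Cadherin and protocadherin genes were higher in 1 and lower in 9 of 14 that met the filter in both genotypes. Pcdh9 had 421.0, 442.7 and 490.7 in KO MEFs, against 2.07, 2.89 and 1.40 in WT MEFs. Among axon guidance genes, 13 were higher and 14 lower of 39. The ligand genes Slit2 (7.99) and Slit3 were higher, whereas their receptor gene Robo1 had no read in KO MEFs and 294.5, 277.2 and 265.5 in WT MEFs, and Robo2 had none in KO MEFs either (at least 71.8-fold lower).

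Matrix metalloproteinase and inhibitor genes were higher in 1 and lower in 5 of 13 members that met the filter in both genotypes, with Mmp2, which cleaves basement membrane collagen, at 0.93 (0.40 and not called with each chromosome centred), Mmp3 at -4.97 and the inhibitor gene Timp1 level at 0.04. Genes of the amyloid precursor and its secretases were higher in 3 and lower in 5 of 14. App (1.04) and its relative Aplp2 (1.06) were higher and the secretase gene Bace1 (-2.37) was lower. Heterotrimeric G protein and Rgs genes, which pass on signals from receptors and end them, were higher in 7 and lower in 8 of 25, with Gng8 at 4.90 and Rgs17 at -6.10. Aldehyde dehydrogenase, aldo-keto reductase and carboxylesterase genes were higher in 2 and lower in 6 of 20. Ces1a (8.31), a carboxylesterase, and Aldh3a1 (4.97), which clears aldehydes, were higher.

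Among genes that every cell needs, 28.4% of ribosomal protein, 42.4% of proteasome and 22.5% of oxidative phosphorylation genes tested were called. Over all genes that met the filter in both genotypes 40.7% were called, 19.9% higher and 20.9% lower. Of 81 ribosomal protein genes, 20 were higher and 3 lower, with a median of 0.40, among them Rpl13 (1.37), Rpl34 (1.17) and, lower, Rplp0 (-1.33). Many of these genes have processed pseudogenes of near-identical sequence. Of 33 proteasome genes, 3 were higher and 11 lower (median -0.41), with 1 higher without WT control replicate 3 or with each chromosome centred. Of 71 genes of oxidative phosphorylation 10 were higher and 6 lower (median 0.11). Cell cycle genes that met the filter in both genotypes numbered 45, with 7 higher (15.6%) and 6 lower (13.3%), shares below those of all such genes. Foxm1, which drives the mitotic genes, had 11312, 11632 and 10457 in KO MEFs, against 4767, 4407 and 4155 in WT MEFs. The cyclin and kinase genes Ccnd2 (1.30) and Cdk6 (1.24) were higher and the checkpoint gene Mad2l1 lower (-1.19), while the proliferation marker Mki67 had 11337 ± 650.6 in KO MEFs and 11586 ± 712.9 in WT MEFs (SD, n = 3 each).

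Among p53 targets and brakes of the cell cycle 7 were higher (30.4%) and 4 lower (17.4%) of 23 that met the filter in both genotypes. The shares over all such genes were 19.9% and 20.9%. Cdkn1a, the p21 inhibitor of cyclin-dependent kinases, had 782.6, 591.7 and 594.7 in KO MEFs, against 94.4, 93.1 and 79.6 in WT MEFs. The retinoblastoma family genes Rb1 (1.71) and Rbl2 (1.5) were higher, and Fas (-2.28) and Trp53inp1 (-3.39) lower. Trp53 (0.08) and Cdkn2a (0.14), which spontaneously immortalized MEFs often mutate or lose, were not called. Of the enzymes of DNA methylation, Tet2 was higher (2.82), Tet1 (-3.78) and Dnmt3l (-2.09) were lower, and Dnmt1 (-0.22) was not called.

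**Figure D4:**
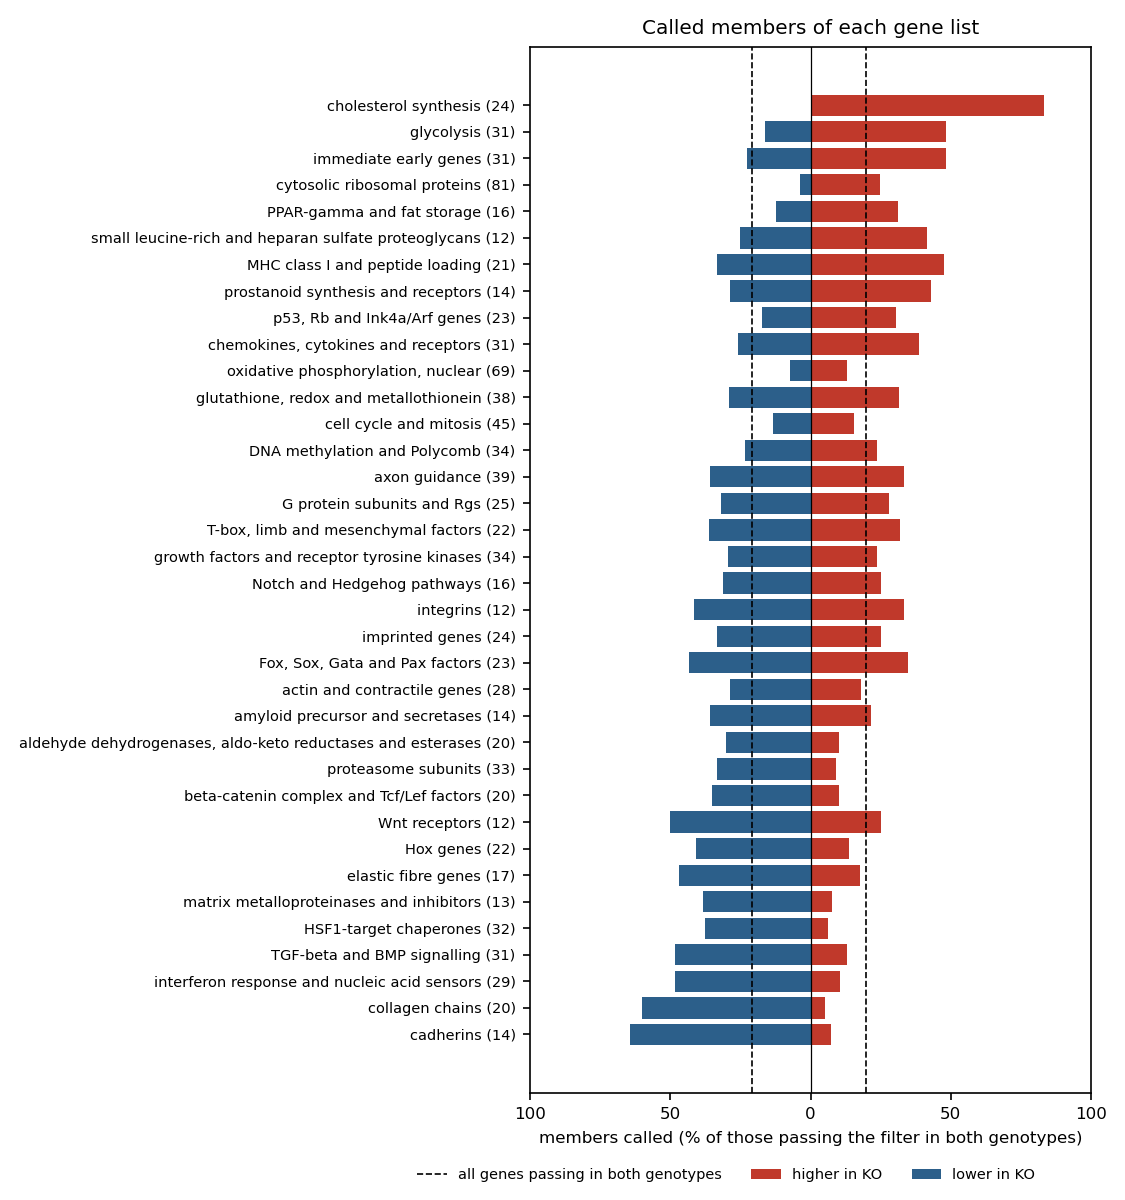
Share of members called higher (to the right) or lower (to the left) in KO MEFs for each gene list, in percent of the members that met the filter in both genotypes, with dashed lines at 19.9% higher and 20.9% lower for all such genes. Cholesterol synthesis stands far to the right, while collagens and cadherins reach far to the left.

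Calls were not spread evenly over chromosomes. On chromosome 8, 46.2% of the 723 genes tested were higher, and on chromosome 5, 46.3% of 840 were lower. The median log2 fold changes of their genes that met the filter in both genotypes were 0.53 and -0.48. Chromosome 15 (median -0.41) and chromosome 10 (-0.35) had 42.9% and 37.9% of genes lower, and chromosome 3 (0.22) had 33.9% higher, beside 22.6% higher and 25.9% lower over all genes tested. Within chromosomes the medians of 20 Mb windows changed sign in places. On chromosome 5 the first 20 Mb stood at 0.37 and the later windows at -0.44 to -0.75, and on chromosome 6 the windows from 120 to 140 Mb and from 140 to 160 Mb stood at 0.52 and -0.68. All windows of chromosome 8 were positive, at 0.29 to 0.77. When each chromosome was centred on its own median, an alternative added after the data were seen, 5399 of the calls were kept. That fit held the 13026 genes with a position on an autosome or the X chromosome, so calls of other genes could not be kept.

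Runs of adjacent genes that moved alike were looked for after these values were seen. The steepest long run, at chr6:4600839-7042979, held 13 genes, all lower in KO MEFs with a median of -6.24 and 7 of them without a read there. It takes in Sgce, Peg10, Asb4 and Pdk4 named above as well as the limb and craniofacial factor genes Dlx5 and Dlx6. At chr6:127561338-128503281, 14 adjacent genes were higher, with a median of 1.34, Foxm1 and Fkbp4 among them. At chr5:74195286-76570294, 12 were lower, with a median of -1.30, and included the receptor genes Pdgfra, Kit and Kdr. At chr8:106572966-107425051, 12 were higher, with a median of 1.38.

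**Figure D5:**
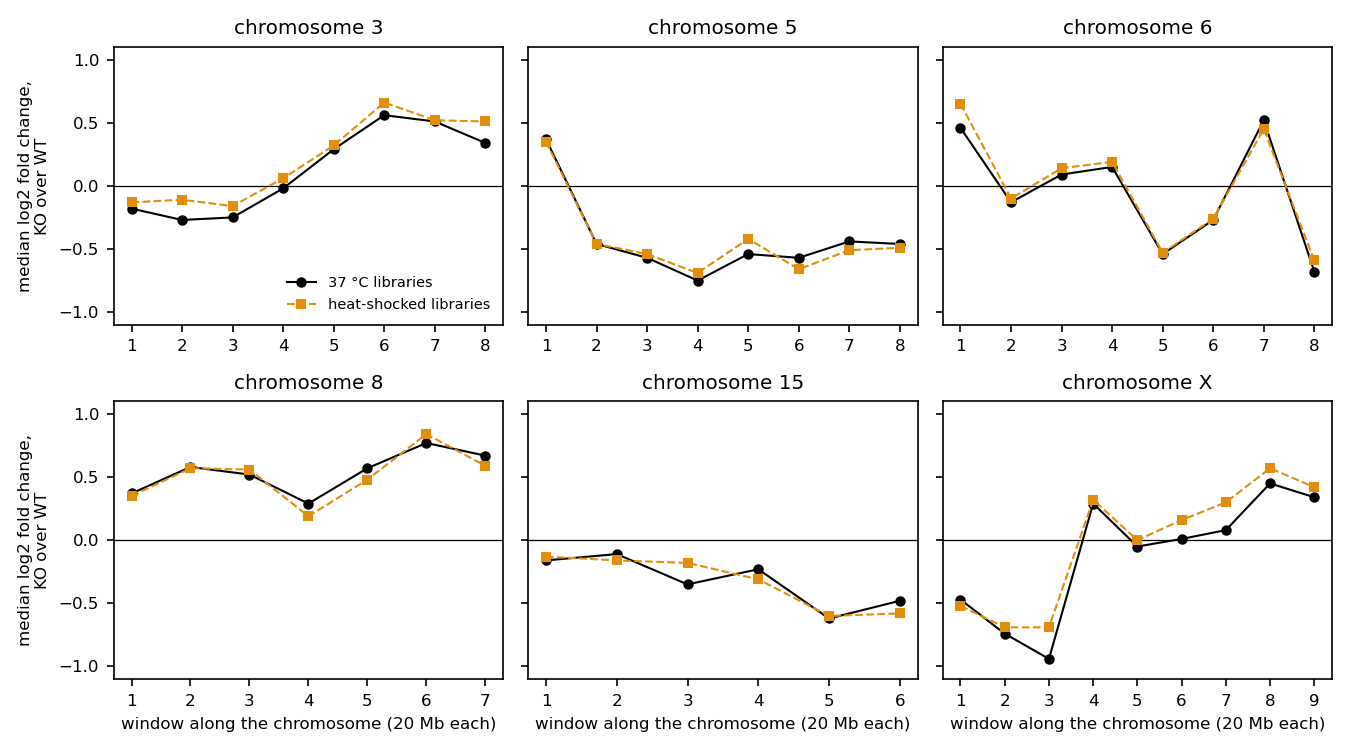
Median log2 fold change of KO over WT in successive 20 Mb windows of chromosomes 3, 5, 6, 8, 15 and X, for control libraries at 37 °C and for heat-shocked libraries. The lines of both temperatures run close together, with chromosome 8 above 0 throughout and most of chromosome 5 below it.

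The genotypes were compared again in the 6 heat-shocked libraries, which are separate from those used above. There 6572 genes were called (48.2%), 3107 higher (22.8%) and 3465 lower (25.4%), and 5756 of the 6613 genes called at 37 °C (87.0%) were called in the same direction. Only 34 had the opposite sign. Chromosome medians were close as well, at 0.48 for chromosome 8 and -0.51 for chromosome 5. The difference between the genotype effect after heat shock and that at 37 °C passed for 0 genes in limma (smallest adjusted p = 0.0643, 2492 genes at an unadjusted p below 0.05) and for 8 called genes in edgeR (2598 genes at an unadjusted p below 0.05).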

How the data were processed

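Messenger RNA of 12 MEF libraries was sequenced, and the 3 KO control and 3 WT control libraries were used for the comparison at 37 °C. The authors prepared stranded paired-end libraries, used cutadapt 1.10 for trimming and STAR 2.5.2 for alignment (versions from the submitters' processing notes), counted reads per gene and divided the counts by a DESeq2 size factor per library. The deposited normalized signal was whole multiples of 1 read within 0.01 read for 100% of values, so whole reads could be recovered. The paper names the GRCm38 build and the notes mm9, and the table holds no positions, so positions are those of GENCODE for GRCm38, matched by symbol (13041 of 13633 genes to 1 entry).

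Genes whose signal reached 10 in 3 or more of the 6 libraries entered the test, limma 3.58.1 (R 4.3.3; trend, two-sided, no replicate block) on log2(signal + 1), and p-values were adjusted over all genes tested by Benjamini-Hochberg. Fold changes on that scale understate changes of low genes. Calls needed an adjusted p no higher than 0.05 together with a fold no smaller than 1.5. Simulated data held far fewer changed genes than were called here. In them 79.1% of genes changed 1.5-fold reached an adjusted p no higher than 0.05, with 92.5% at 2-fold and 98.5% at 4-fold. The fold threshold was not applied to these shares, so they are not the share of such genes that would be called. A gene without a read in a genotype was given a bound against 3 reads over the group.

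The members and gene lists were chosen with earlier results of these data known. The text names Tgm2, Hsf1 and 5 Wnt-related genes, the 10 steepest genes in each direction that were read in both genotypes at a mean of at least 10 and, in the higher one, of at least 500, and the 10 of highest level without a read in 1 genotype. It also names the 8 largest shifts in mean signal in each direction, the most abundant level genes, and up to 4 called genes in each direction and 3 uncalled genes per list. Pseudogenes and predicted genes entered the counts without being named, and genes outside this rule are said to be so. Alternatives were pseudocounts of 0.5 and 5, no filter or a filter of 50, quantile and TMM scaling, edgeR 4.0.16 and DESeq2 1.42.0 on the recovered reads, a fit of all 12 libraries, a replicate block, leaving out each library, and centring by chromosome, which was added after the data were seen. Some genes chosen by this rule were left out of the text.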

Additional observations from a re-analysis of the deposited data

Results flagged for a closer look

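The genotype effect differed between heat-shocked and control libraries in edgeR for 7 named genes, none of which passed in limma. The value given is the log2 genotype effect (KO over WT) after heat shock minus that at 37 °C. For Rpph1, the RNA of ribonuclease P, it was -2.18 (adjusted p = 0.0183 from edgeR and 0.0643 from limma), with 162.8, 143.1 and 162.2 in heat-shocked KO MEFs against 149.2, 191.4 and 225.9 in heat-shocked WT MEFs, and 30.8, 46.6 and 44.1 in control KO MEFs against 13.5, 7.22 and 12.6 in control WT MEFs. For the phosphatase gene Dusp1 it was -1.43 (adjusted p = 0.0205 from edgeR and 0.112 from limma), with 495.1, 473.0 and 561.9 in heat-shocked KO MEFs against 308.2, 303.4 and 141.9 in heat-shocked WT MEFs, and 518.6, 484.3 and 483.9 in control KO MEFs against 94.36, 88.80 and 96.41 in control WT MEFs. For the transcription factor gene Jun it was -1.20 (adjusted p = 0.0183 from edgeR and 0.0957 from limma). Jun had 2965, 2777 and 3024 in heat-shocked KO MEFs against 2269, 2438 and 1380 in heat-shocked WT MEFs. It was -0.82 for the immediate early gene Ier2, 0.60 for the lipid flippase gene Atp11b, 1.15 for the noncoding RNA Dnm3os and 1.34 for the mitochondrial ribosomal RNA mt-Rnr2 (adjusted p of 0.0183 to 0.0489 from edgeR over these 4 and 0.0795 to 0.112 from limma).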

How the results depend on the processing

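The number of genes called was 6613, and 6599 at a pseudocount of 0.5, 6518 at 5, 8397 of 23329 without a filter and 5122 of 11502 at a filter of 50. It was 6853 with quantile normalization, 6602 with TMM, 6626 with edgeR, 6487 with DESeq2 and 6598 with all 12 libraries in the fit. With each chromosome centred, the alternative chosen after the data were seen, 5890 of 13026 genes were called. Leaving out 1 library at a time gave 6491 to 6695. With the replicate number as a block 6659 genes were called, 3104 higher and 3555 lower. KO and WT control libraries of equal number deviated from their group means with correlations of 0.238, 0.0301 and 0.173. These were not all above 0.1, and the main comparison was run unpaired. The second principal component (1.21% of the variance) nevertheless ordered the replicate numbers alike, at 17.5, -1.86 and -15.7 in KO and 17.3, -3.37 and -13.9 in WT libraries. The mitochondrial share of reads also rose with the number in both genotypes, so a link between libraries of equal number remains possible. Of 477 named genes tested, 348 were called, 334 of them in every alternative that could be run, and 28 of the 129 uncalled genes were called in at least 1. None changed sign while called. Psmb10 was called higher (0.59 to 0.65) in 8 alternatives, and with each chromosome centred Dvl1 (0.61), Hspa9 (0.64), Fosl2 (1.02), Junb (-0.94), Notch2 (-0.60) and Calr (-0.80) were called. The lower call of Tgm2 ended in 5 alternatives, given above. Collagen genes called higher numbered 5 with quantile normalization against 3, and with each chromosome centred cell cycle genes called lower numbered 3 against 6 and DNA methylation and Polycomb genes 4 against 9. For the difference of the genotype effect between heat-shocked and control libraries, edgeR called 8 genes and limma 0, also with the block (2289 genes at an unadjusted p below 0.05). Genes near 1 read per library are limited by depth.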
